A study of Saccharomyces cerevisiae with 19 samples.

Results

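The 7 genes described here are subtelomeric sugar-use genes of the budding yeast Saccharomyces cerevisiae, chosen by name from 3 chromosome ends, with earlier results of these data known, out of 4188 genes measured. MAL33 (YBR297W) and MAL13 (YGR288W) encode activators of maltose genes, MAL31 (YBR298C) and MAL11 (YGR289C) encode maltose permeases, IMA1 (YGR287C) and IMA5 (YJL216C) encode isomaltases, and HXT8 (YJL214W) encodes a protein of the hexose transporter family. The measurement is Sir3 binding by ChIP on a tiling microarray: chromatin fixed with formaldehyde was precipitated with a polyclonal anti-Sir3 antibody and set against whole cell extract on 2-colour arrays. Unless stated otherwise, values below are log2 ratios of precipitate over extract, centred on each array's median. Gene values average the probes inside the coding region. Values given after scaling are instead in units of each array's spread over probes far from chromosome ends.

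Yeast subtelomeres carry many genes for the use of particular sugars. A complete MAL locus holds an activator, a permease and a maltase gene, and is turned on by maltose. Isomaltases split isomaltose and related sugars, and the hexose transporter family carries glucose and other hexoses into the cell. Sir3 is a structural protein of silent chromatin: with Sir2 and Sir4 it spreads inward from telomeres over nucleosomes that Sir2 has deacetylated. Nicotinamide (NAM) inhibits the deacetylase Sir2, and Dot1 methylates histone H3 within the nucleosome core, a mark that hinders Sir3 binding.

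The series held 19 arrays in 11 groups, 8 groups of 2 arrays and 3 of 1 array, all from cells grown exponentially in rich glucose medium (YPD). Every strain carried RAP1 tagged with GFP. The group dot1 pGPD-SIR3 NAM release (strain yAT3183, 2 arrays) and the group pGPD-SIR3 NAM release (yAT1254, 2 arrays) were sampled 8 h after release of the cells from 5 mM NAM into fresh medium, and the first of them also carried dot1::KanMx. The pGPD-SIR3-A2Q strain (yAT1256, 2 arrays) expressed the sir3-A2Q mutant from the strong GPD promoter. The strains pGPD-SIR2 pGPD-SIR3 (yAT1668, 2 arrays) and pGPD-SIR2 (yAT1667, 1 array) carried sir2::GPD-SIR2(KanMX) with RDN1::ADE2, and the first of them carried sir3::GPD-SIR3(NAT) in addition. The arrays of pGPD-SIR3 yAT2476 and pGPD-SIR3 yAT2554 (1 each) were further strains with sir3::GPD-SIR3(NAT), and yAT2554 also lacked HML (hml delta::HPH) and carried ade2-1::ADE2. Wild type (WT, yAT191, 2 arrays) carried SIR3 under its own promoter, a URA3 construct at ADH4, ppr1 delta::HIS3 and ade2-1::ADE2. The pADH-SIR3 (yAT2627) and pTEF-SIR3 (yAT2629) strains, 2 arrays each, shared the hml delta::HPH background of yAT2554, whereas pGPD-SIR3 (yAT1254, 2 arrays), pGPD-SIR3-A2Q and the dot1 strain shared the background of WT. Promoter and background therefore cannot be told apart in the comparisons of pADH-SIR3 and pTEF-SIR3 with WT or of pGPD-SIR3 with pTEF-SIR3. Nor can SIR2 overexpression and the RDN1::ADE2 background in those of pGPD-SIR2 with WT or of pGPD-SIR2 pGPD-SIR3 with pGPD-SIR3.

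Each array measured 40247 to 41270 of 41480 chromosomal probes. The labels do not say that replicates came from separate cultures, so p-values measure only the spread between arrays. The accession numbers fall into separate blocks, a first deposit of 12 arrays and a later one of 7, which held every array of both NAM release groups together with replicate 2 of pGPD-SIR2 pGPD-SIR3, of pTEF-SIR3 and of pADH-SIR3. Slides were inferred from a number in the names of the deposited array data, which the sample titles do not give. The 7 later arrays have no such number and share a common level where the slide is used as a block. The scaled median absolute deviation of probes over 50 kb from an end was 0.540 and 0.552 on the dot1 arrays and 0.268 to 0.392 on the other 17. Over SIR3 itself, where the promoter was exchanged, the log2 ratio was 2.55 to 4.11 in every array with wild-type SIR3 under the TEF or GPD promoter, 0.87 and 0.97 in pADH-SIR3, 0.34 and 0.73 in pGPD-SIR3-A2Q, 0.20 in pGPD-SIR2, and 0.41 and 0.21 in WT. In these bulk samples a smaller share of cells bound and less binding per cell cannot be told apart.

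The 7 genes lie between 7.9 and 27.7 kb from their chromosome ends, counted from base 1 on left arms and, on right arms, from whichever gene or probe is outermost. MAL31 (7.9 kb) and MAL33 (10.3 kb) stand side by side on the right arm of chromosome 2. MAL11 (15.7 kb), MAL13 (19.6 kb) and IMA1 (22.5 kb) follow each other inward on the right arm of chromosome 7. IMA5 (25.2 kb) and HXT8 (27.7 kb) lie on the left arm of chromosome 10. Their coding regions held 45 probes, of which 32 were averaged. In the files' coordinates, whose genome build the sources used here do not state, the averaged probes ran from 802934 to 804118 in MAL31, 800594 to 801432 in MAL33, 1074118 to 1075633 in MAL11, 1070516 to 1071463 in MAL13, 1067307 to 1068530 in IMA1, 24555 to 25619 in IMA5 and 27045 to 27902 in HXT8. The maltase genes of these MAL loci, MAL32 and MAL12, had no probe on the array.

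**Figure D1:**
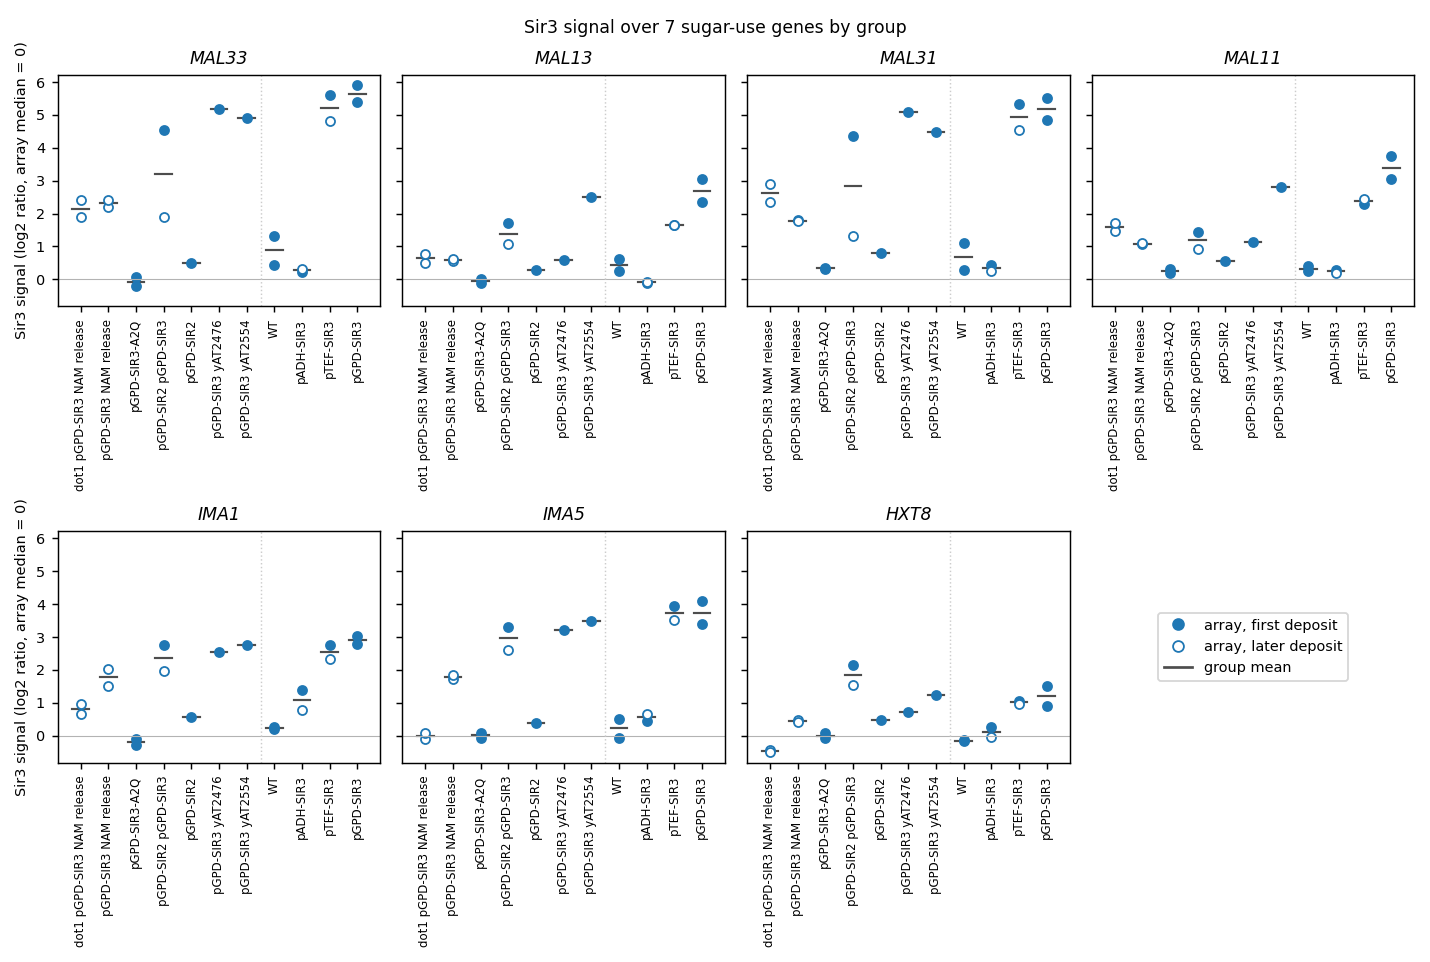
Log2 ratio of Sir3 precipitate over whole cell extract, centred on each array's median, for each of the 7 genes (panels) in all 11 groups (horizontal axis). Points are arrays, filled for the first deposit and open for the later one, and bars are group means. The pTEF-SIR3 and pGPD-SIR3 arrays stand above both WT arrays in every panel, whereas the pGPD-SIR3-A2Q arrays stay between -0.29 and 0.36.

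The first comparison asks how Sir3 binding over these genes changed with the promoter that drives SIR3. All 7 genes had higher Sir3 binding in pTEF-SIR3 than in WT and in pGPD-SIR3 than in WT, and no gene of the 7 passed the test in pADH-SIR3 against WT. The differences of pTEF-SIR3 from WT were 1.16 (HXT8) to 4.33 (MAL33) on the log2 scale, and those of pGPD-SIR3 from WT were 1.36 (HXT8) to 4.77 (MAL33). The test was limma's moderated test over all 4188 genes with Benjamini-Hochberg adjustment at 0.05. Of all genes, 8.07% were called higher in pTEF-SIR3 than in WT and 6.57% in pGPD-SIR3 than in WT. Among the 161 other genes 5 to 30 kb from an end, 44.1% were higher in pTEF-SIR3 and 42.9% in pGPD-SIR3, with median differences of 0.45 and 0.53. The median of the 7 genes was 2.32 for pTEF-SIR3 and 3.07 for pGPD-SIR3. On the slides that held both groups, the 7 differences from WT were 1.06 to 5.16 for pTEF-SIR3 and 1.65 to 4.59 for pGPD-SIR3.

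The activator gene MAL33 had log2 ratios of 1.32 and 0.44 in WT, 0.22 and 0.32 in pADH-SIR3, 5.60 and 4.82 in pTEF-SIR3, and 5.91 and 5.39 in pGPD-SIR3. The pADH-SIR3 arrays lay below both WT arrays, and the pTEF-SIR3 and pGPD-SIR3 arrays lay far above both. MAL33 was higher than in WT by 4.33 ± 0.61 (SE) in pTEF-SIR3 (limma adjusted p = 0.000458) and by 4.77 ± 0.61 in pGPD-SIR3 (limma adjusted p = 0.000208). MAL13, the activator gene of the chromosome 7 locus, had 0.26 and 0.61 in WT, -0.11 and -0.08 in pADH-SIR3, 1.66 on each array of pTEF-SIR3, and 3.05 and 2.35 in pGPD-SIR3. Its difference from WT was 1.23 ± 0.22 in pTEF-SIR3 (limma adjusted p = 0.00289) and 2.27 ± 0.22 in pGPD-SIR3 (limma adjusted p = 2.18e-05), with no overlap between the arrays of pGPD-SIR3, pTEF-SIR3 and WT. With the first deposit alone the pTEF-SIR3 difference of MAL13 was 1.23 with a limma adjusted p of 0.0556.

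The maltose permease genes followed their neighbouring activators. MAL31 had log2 ratios of 1.10 and 0.29 in WT, 0.44 and 0.26 in pADH-SIR3, 5.34 and 4.54 in pTEF-SIR3, and 5.53 and 4.86 in pGPD-SIR3. It exceeded WT by 4.25 ± 0.68 in pTEF-SIR3 (limma adjusted p = 0.00138) and by 4.50 ± 0.68 in pGPD-SIR3 (limma adjusted p = 0.000938), and the WT and pADH-SIR3 arrays overlapped. MAL11 had 0.42 and 0.24 in WT, 0.30 and 0.19 in pADH-SIR3, 2.29 and 2.45 in pTEF-SIR3, and 3.74 and 3.05 in pGPD-SIR3. Each step from pADH-SIR3 through pTEF-SIR3 to pGPD-SIR3 left MAL11 arrays without overlap. The gains over WT were 2.04 ± 0.20 in pTEF-SIR3 (limma adjusted p = 2.6e-05) and 3.07 ± 0.20 in pGPD-SIR3 (limma adjusted p = 1.89e-06).

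Both isomaltase genes rose as well. IMA1 had log2 ratios of 0.26 and 0.19 in WT, 1.39 and 0.78 in pADH-SIR3, 2.77 and 2.32 in pTEF-SIR3, and 3.03 and 2.78 in pGPD-SIR3. It was the one gene of the 7 whose pADH-SIR3 arrays both lay more than 0.5 above the WT arrays, but its difference of 0.86 ± 0.27 did not pass the test (limma adjusted p = 0.172). IMA1 was higher than in WT by 2.32 ± 0.27 in pTEF-SIR3 (limma adjusted p = 9.65e-05) and by 2.68 ± 0.27 in pGPD-SIR3 (limma adjusted p = 2.48e-05). A single IMA1 probe, at 1068478 to 1068530 on chromosome 7, differed from WT by 4.21 in pGPD-SIR3, against 1.85 to 2.89 at the other 4 averaged probes. Without this probe, a setting chosen after seeing the data, the IMA1 difference from WT was 1.99 in pTEF-SIR3 (limma adjusted p = 0.000309) and 2.30 in pGPD-SIR3 (limma adjusted p = 8.52e-05). The closely related isomaltase genes IMA2, IMA3 and IMA4 had no probe, so IMA1 could not be compared with them.

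IMA5 had log2 ratios of 0.51 and -0.07 in WT, 0.44 and 0.67 in pADH-SIR3, 3.95 and 3.52 in pTEF-SIR3, and 4.09 and 3.39 in pGPD-SIR3. Its difference from WT was 3.52 ± 0.26 in both pTEF-SIR3 (limma adjusted p = 4.94e-06) and pGPD-SIR3 (limma adjusted p = 3.6e-06). HXT8, the innermost of the 7 genes, had -0.13 and -0.17 in WT, 0.25 and -0.03 in pADH-SIR3, 1.06 and 0.96 in pTEF-SIR3, and 1.52 and 0.89 in pGPD-SIR3. These were the lowest gains among the 7 genes: 1.16 ± 0.20 over WT in pTEF-SIR3 (limma adjusted p = 0.00216) and 1.36 ± 0.20 in pGPD-SIR3 (limma adjusted p = 0.00071).

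**Figure D2:**
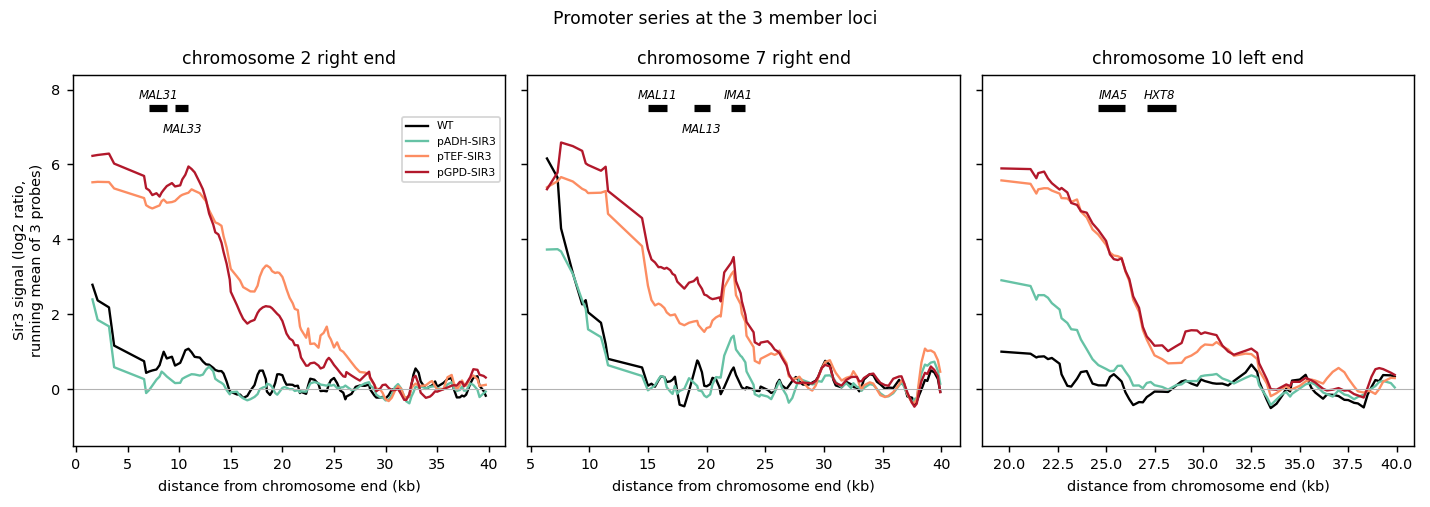
Running mean over 3 probes of the log2 ratio against distance from the chromosome end (kb) at the 3 ends that hold the genes, with a line for the mean of each of WT, pADH-SIR3, pTEF-SIR3 and pGPD-SIR3, and black bars for the 7 genes. The pTEF-SIR3 and pGPD-SIR3 lines lie above the WT and pADH-SIR3 lines over every gene and come down to them between about 20 and 35 kb.

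Within a chromosome end the gain over WT depended on position. On chromosome 10 the difference of pGPD-SIR3 from WT at single probes was 4.61 at the end of IMA5 nearest the telomere, 3.17 at its last averaged probe, 1.78 at the first HXT8 probe and 0.88 at the HXT8 probe farthest from the telomere. The gain thus declined across IMA5 and HXT8 by several log2 units within about 4 kb. On chromosome 2 the gain was 4.06 to 4.89 at the 5 averaged probes of MAL31 and 4.52 to 5.03 at the 4 of MAL33, with no decline between these genes. On chromosome 7 it was 4.55 and 4.67 at the probes 11.4 and 11.6 kb from the end, outside MAL11, and 1.87 to 2.53 at the 5 averaged MAL13 probes. It did not keep declining farther inward, with 1.85 to 4.21 at the averaged IMA1 probes.

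The distance at which the running mean of 5 probes first dropped below a log2 ratio of 1 placed the genes inside or outside the bound domain. This domain is the stretch unbroken from the outermost probes, and the signal can rise above 1 again farther inward. The running mean of 5 probes has no value at the outermost probes, so a domain that ends there is not resolved. On chromosome 2 this distance was 7.1 and 6.6 kb in WT, 6.6 and 3.7 kb in pADH-SIR3, 27.5 and 21.8 kb in pTEF-SIR3, and 21.8 and 21.5 kb in pGPD-SIR3, so MAL31 and MAL33 lay inside it only in the arrays of the stronger promoters among these 4 groups. On chromosome 7 it was 14.5 and 11.6 kb in WT, 11.6 and 11.4 kb in pADH-SIR3, 24.5 and 24.1 kb in pTEF-SIR3, and 26.4 and 24.6 kb in pGPD-SIR3. MAL11, MAL13 and IMA1 thus also lay outside the domain in WT and pADH-SIR3 and inside it in pTEF-SIR3 and pGPD-SIR3. Beyond these distances IMA1 nevertheless had 1.39 and 0.78 in pADH-SIR3. On chromosome 10 it was 22.7 and 21.4 kb in WT, 24.0 and 24.3 kb in pADH-SIR3, 27.9 and 27.5 kb in pTEF-SIR3, and 32.8 and 27.3 kb in pGPD-SIR3. The lowest distance of any array there was 21.4 kb, also found in both pGPD-SIR3-A2Q arrays. A distance of 21.4 kb therefore does not show that a bound domain reached that far. IMA5 lay just beyond the WT and pADH-SIR3 distances, and HXT8 lay close to where the pTEF-SIR3 and pGPD-SIR3 distances fell.

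Of the genes inward of each locus, PHO89 and BIO2 were also higher in pTEF-SIR3 than in WT, and OPT1 was not called. PHO89, a phosphate transporter gene 13.8 kb from the end of chromosome 2, had means of 4.39 in pTEF-SIR3 and 0.55 in WT, a difference of 3.84 (limma adjusted p = 0.00111). BIO2, a biotin synthase gene next to IMA1 at 26.2 kb on chromosome 7, had means of 1.04 in pTEF-SIR3 and 0.25 in WT, a difference of 0.78 (limma adjusted p = 0.0172). OPT1, an oligopeptide transporter gene at 35.0 kb on chromosome 10, differed from WT by -0.04 in pTEF-SIR3 and 0.03 in pGPD-SIR3 and did not pass the test.

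Between the promoters, all 7 genes were higher in pTEF-SIR3 than in pADH-SIR3, where 3.68% of all genes were called higher. The differences were 0.90 ± 0.20 in HXT8 (limma adjusted p = 0.0233), 1.46 ± 0.27 in IMA1 (limma adjusted p = 0.00596), and 1.75 to 4.94 in the other 5 genes. The HXT8 call was lost without any 1 array of these groups (0.76 to 1.04, limma adjusted p = 0.0566 to 0.213). The IMA1 call was lost without pTEF-SIR3 replicate 1 (1.24, limma adjusted p = 0.056) or pADH-SIR3 replicate 2 (1.16, limma adjusted p = 0.094). Within the first deposit the 7 differences were 0.80 to 5.38, and within the later one 0.99 to 4.50.

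In pADH-SIR3 against WT, 0 of the 7 genes passed limma's adjusted threshold, 2 (MAL13 and IMA1) had an unadjusted p under 0.05, and 0.907% of all genes were called in either direction. The signs were mixed, with differences of -0.61 ± 0.61 in MAL33, -0.53 ± 0.22 in MAL13 and -0.35 ± 0.68 in MAL31 beside 0.34 ± 0.26 in IMA5 and 0.26 ± 0.20 in HXT8. The first deposit alone, or the deposit as a block, brought IMA1 past the threshold at 1.16 (limma adjusted p = 0.0128 and 0.00404), and the slide as a block brought IMA5 past it at 1.31 (limma adjusted p = 0.00398).

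In pGPD-SIR3 against pTEF-SIR3, 1 gene of the 7 was higher, against 0.167% of all genes. This was MAL11, by 1.02 ± 0.20 (limma adjusted p = 0.048). Its chromosome 7 neighbour MAL13 differed by 1.04 ± 0.22 and did not pass (limma adjusted p = 0.0555), while MAL31 differed by 0.25 ± 0.68 and IMA5 had a mean of 3.74 in both groups. The MAL11 call was lost without either pTEF-SIR3 array (0.95 and 1.10) or without pGPD-SIR3 replicate 1 (0.68, limma adjusted p = 0.144), and with the deposit as a block (0.95, limma adjusted p = 0.109).

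**Figure D3:**
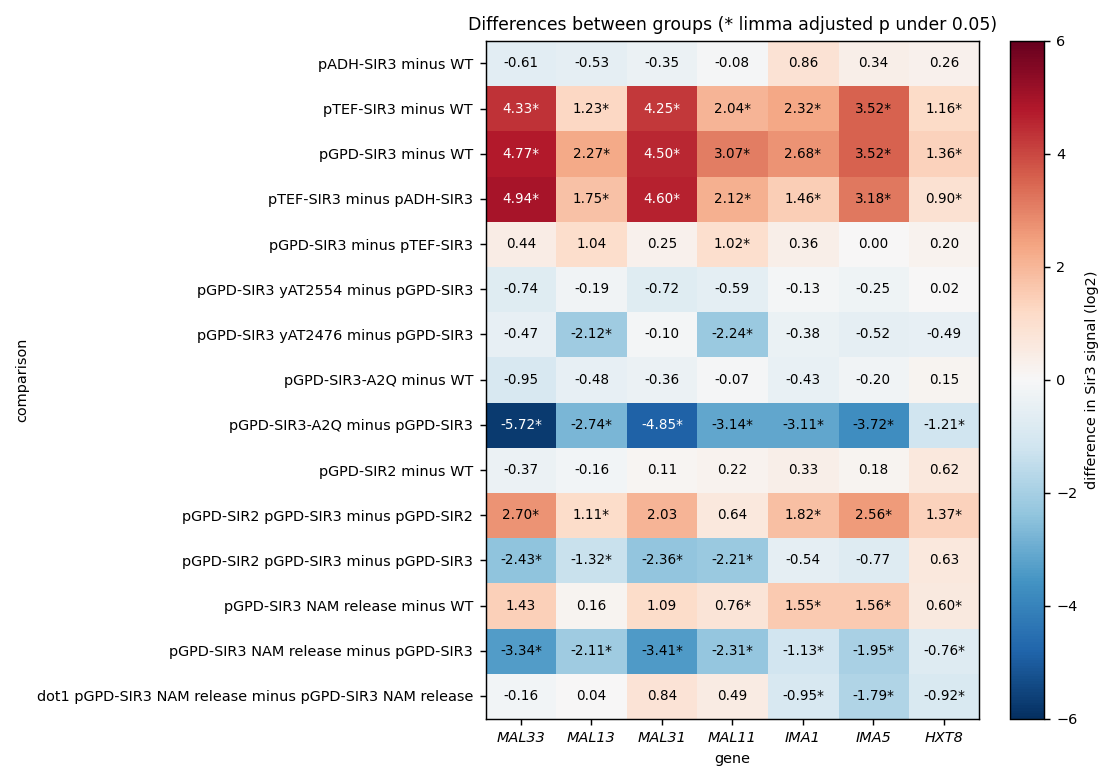
Heat map of the difference in mean log2 ratio for the 7 genes in each of the 15 comparisons, named as first group minus second group. Colour and printed numbers give the difference, and an asterisk marks a limma adjusted p under 0.05. All 7 genes carry an asterisk with a positive difference in pTEF-SIR3 minus WT and pGPD-SIR3 minus WT, and with a negative one in pGPD-SIR3-A2Q minus pGPD-SIR3.

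The next comparison set the other strains with GPD-driven SIR3 against pGPD-SIR3 (yAT1254). In the single array of pGPD-SIR3 yAT2554, 0 of the 7 genes passed limma's adjusted threshold and 1 (MAL11) had an unadjusted p under 0.05. Of all genes 0.0716% were called, 1 higher and 2 lower. After scaling each array to its internal spread 0 were higher and 1 lower, and with the authors' filled ratio 4 were higher and 4 lower. These are too few for a split by direction to be read. MAL33 had 4.91, MAL31 4.47, MAL13 2.52, MAL11 2.80, IMA1 2.77, IMA5 3.49 and HXT8 1.23 in yAT2554. Beside pTEF-SIR3, which shares the background of yAT2554, the directions were mixed. MAL13, MAL11, IMA1 and HXT8 were above the pTEF-SIR3 means (1.66, 2.37, 2.55 and 1.01). MAL33, MAL31 and IMA5 were below them (5.21, 4.94 and 3.74). The difference of yAT2554 from pTEF-SIR3 was not tested. The largest difference with a small error was -0.59 ± 0.24 for MAL11 (limma adjusted p = 0.362). A lone array is assumed in these tests to vary like the groups with replicates.

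The single array of pGPD-SIR3 yAT2476 differed at the chromosome 7 MAL locus. MAL13 had a log2 ratio of 0.58 in yAT2476, against 3.05 and 2.35 in pGPD-SIR3, a difference of -2.12 ± 0.27 (limma adjusted p = 0.00153). MAL11 had 1.15 in yAT2476, against 3.74 and 3.05 in pGPD-SIR3, a difference of -2.24 ± 0.24 (limma adjusted p = 0.000674). These were the 2 genes of the 7 called lower, against 3.37% of all genes and 4.97% of the 161 other genes 5 to 30 kb from an end. The averaged MAL13 probes spanned 0.21 to 0.92 in yAT2476 and 2.47 to 3.00 in pGPD-SIR3, so every probe of the gene moved the same way. On the same chromosome end IMA1, which lies farther inward, had 2.53 in yAT2476, against 3.03 and 2.78 in pGPD-SIR3, a difference of -0.38 ± 0.32 that did not pass (limma adjusted p = 0.511). MAL33 had 5.18 in yAT2476, against 5.91 and 5.39 in pGPD-SIR3. MAL31 had 5.10 in yAT2476, between the 5.53 and 4.86 of pGPD-SIR3. Whether the difference at MAL11 and MAL13 exceeded that at the other 5 genes was not tested. At single probes on chromosome 7 the difference of yAT2476 from pGPD-SIR3 was -2.33 to -2.11 over the averaged probes of MAL11, -2.37 to -1.94 over those of MAL13 and -0.66 to -0.11 over those of IMA1.

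**Figure D4:**
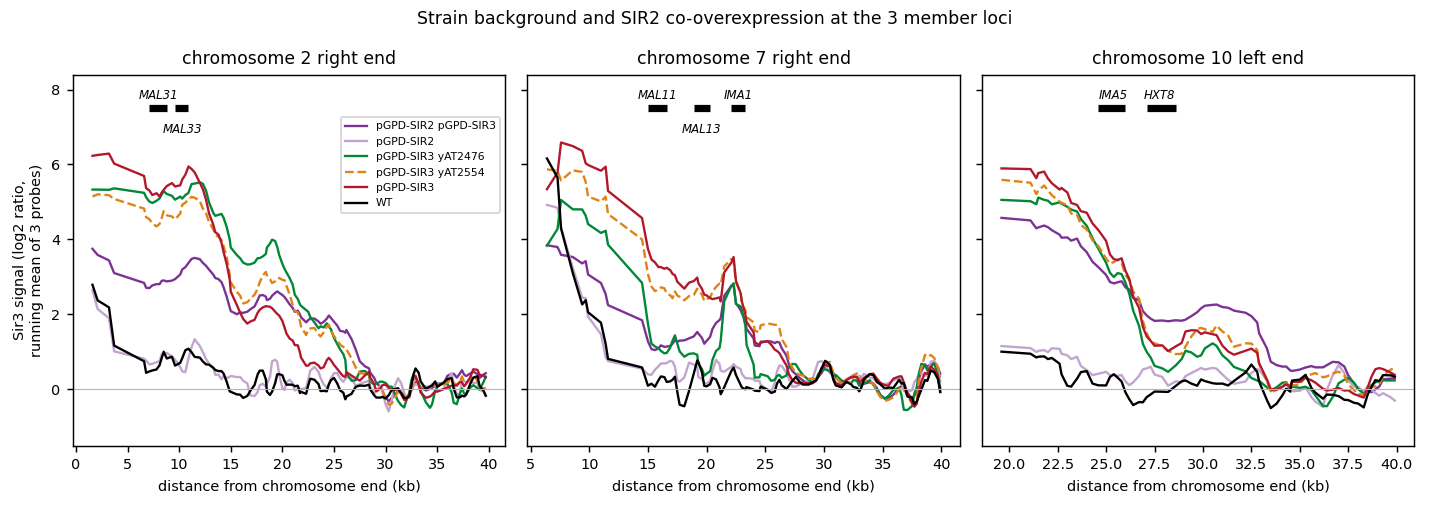
Running mean over 3 probes of the log2 ratio against distance from the chromosome end (kb), at the 3 ends that hold the genes (black bars). Lines are pGPD-SIR2 pGPD-SIR3, pGPD-SIR2, pGPD-SIR3 yAT2476, pGPD-SIR3 yAT2554, pGPD-SIR3 and WT. On chromosome 7 the yAT2476 line lies below the pGPD-SIR3 and yAT2554 lines over MAL11 and MAL13 and approaches them over IMA1, whereas on chromosome 2 it stays with them over MAL31 and MAL33.

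The sir3-A2Q mutant is a form of Sir3 with an altered N terminus that the study used at high expression. None of the 7 genes was called in pGPD-SIR3-A2Q against WT. By limma's adjusted threshold 0 passed, 1 (MAL13) had an unadjusted p under 0.05, and 1.41% of all genes were called in either direction. Of those calls 30.5% were higher, against 58.2% after scaling each array to its internal spread, 16.0% with centring on internal probes and 17.8% with the authors' ratio that has missing probes filled. MAL33 had -0.20 and 0.07 in pGPD-SIR3-A2Q, against 1.32 and 0.44 in WT, and MAL13 had 0.01 and -0.10 in pGPD-SIR3-A2Q, against 0.26 and 0.61 in WT. Both differences, -0.95 ± 0.61 and -0.48 ± 0.22, missed the threshold (limma adjusted p = 0.384 and 0.238). HXT8 had 0.07 and -0.07 in pGPD-SIR3-A2Q, against -0.13 and -0.17 in WT. Its difference of 0.15, the 1 positive value among the 7 genes, did not pass.

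Against pGPD-SIR3, all 7 genes were lower in pGPD-SIR3-A2Q, where 7.93% of all genes and 51.6% of the 161 other genes 5 to 30 kb from an end were called lower. Calls over all genes were higher in 14.0% of cases, and in 25.9% after scaling to the internal spread. MAL31 had 0.32 and 0.36 in pGPD-SIR3-A2Q, against 5.53 and 4.86 in pGPD-SIR3, and fell by 4.85 on the log2 scale (SE 0.68, limma adjusted p = 0.000333). IMA5 had 0.09 and -0.06 in pGPD-SIR3-A2Q, against 4.09 and 3.39 in pGPD-SIR3, and fell by 3.72 (SE 0.26, limma adjusted p = 7.33e-07). No array of one group overlapped the other in these genes. The other differences were -5.72 in MAL33, -3.14 in MAL11, -3.11 in IMA1, -2.74 in MAL13 and -1.21 in HXT8 (limma adjusted p = 3.46e-07 to 0.00129). On the slide that held arrays of both groups, the 7 differences were -5.46 to -0.89.

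Overexpression of SIR2 alone was compared with WT on 1 array. Of the 7 genes, 0 passed limma's adjusted threshold, 1 (HXT8) had an unadjusted p under 0.05, and 2.36% of all genes were called. HXT8 had 0.47 in pGPD-SIR2, against -0.13 and -0.17 in WT, a difference of 0.62 ± 0.24 (limma adjusted p = 0.171). The other 6 differences were -0.37 to 0.33. With the slide as a block IMA5 passed, at 1.28 (limma adjusted p = 0.0417).

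Adding GPD-driven SIR3 to GPD-driven SIR2 raised 5 of the 7 genes over pGPD-SIR2, against 9.03% of all genes and 35.4% of the 161 other genes 5 to 30 kb from an end. IMA5 had 3.32 and 2.62 in pGPD-SIR2 pGPD-SIR3, against 0.40 in pGPD-SIR2, a difference of 2.56 ± 0.32 (limma adjusted p = 0.000387). IMA1 differed by 1.82 ± 0.32 (limma adjusted p = 0.00345) and HXT8 by 1.37 ± 0.24 (limma adjusted p = 0.0033). MAL33 and MAL31 were spread widely between the pGPD-SIR2 pGPD-SIR3 arrays, of which the first is from the first deposit and the second from the later one. MAL33 had 4.54 and 1.89 there, against 0.51 in pGPD-SIR2, and MAL31 had 4.35 and 1.31, against 0.80. MAL33 passed at 2.70 ± 0.75 (limma adjusted p = 0.0378) and MAL13 at 1.11 ± 0.27 (limma adjusted p = 0.0203), but not without replicate 1 of pGPD-SIR2 pGPD-SIR3 (1.38 and 0.80, limma adjusted p = 0.0814 and 0.101). Within the first deposit the 7 differences were 0.89 to 4.02. MAL31, at 2.03 ± 0.83 (limma adjusted p = 0.148), passed without replicate 2 (3.55, limma adjusted p = 0.000261), and MAL11 differed by 0.64 ± 0.24 (limma adjusted p = 0.122).

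Against pGPD-SIR3, pGPD-SIR2 pGPD-SIR3 had lower values in all 4 MAL genes, where 6.59% of all genes were called lower and 7.71% higher. Among the 161 other genes 5 to 30 kb from an end, these shares were 23.6% and 13.7%. MAL11 had 1.44 and 0.93 in pGPD-SIR2 pGPD-SIR3, against 3.74 and 3.05 in pGPD-SIR3, a difference of -2.21 ± 0.20 (limma adjusted p = 3.02e-05). MAL13 differed by -1.32 ± 0.22 (limma adjusted p = 0.0024), MAL33 by -2.43 ± 0.61 (limma adjusted p = 0.0202) and MAL31 by -2.36 ± 0.68 (limma adjusted p = 0.0368). The single array of pGPD-SIR3 yAT2476 was not above pGPD-SIR2 pGPD-SIR3 at the chromosome 7 genes. It had 1.15 at MAL11, and 0.58 at MAL13, against 1.70 and 1.07 in pGPD-SIR2 pGPD-SIR3. At MAL33 (5.18) and MAL31 (5.10) yAT2476 was above both arrays. The difference from yAT2476 was not tested. HXT8 leaned the other way, with 2.14 and 1.53 in pGPD-SIR2 pGPD-SIR3, against 1.52 and 0.89 in pGPD-SIR3, and its difference of 0.63 ± 0.20 just missed the threshold (limma adjusted p = 0.0528). HXT8 passed without pGPD-SIR3 replicate 1 (0.95) or pGPD-SIR2 pGPD-SIR3 replicate 2 (0.93), as did IMA5 (-0.77 with all arrays) without pGPD-SIR3 replicate 2 or pGPD-SIR2 pGPD-SIR3 replicate 1 (both -1.12). The first-deposit arrays alone gave -1.96 for MAL11, the only call among the 7, with -1.11 for MAL33, -0.84 for MAL31 and 0.93 for HXT8. Without either pGPD-SIR3 array or the later pGPD-SIR2 pGPD-SIR3 array, MAL33 (-2.70 to -1.11) and MAL31 (-2.70 to -0.84) lost their calls.

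On chromosome 10, where HXT8 lies, the bound domain reached 33.8 and 33.3 kb in pGPD-SIR2 pGPD-SIR3, against 32.8 and 27.3 kb in pGPD-SIR3. On chromosome 2 it reached 28.5 and 14.6 kb, against 21.8 and 21.5 kb. On chromosome 7 the running mean first dropped below 1 at 27.0 and 15.3 kb, against 26.4 and 24.6 kb in pGPD-SIR3. The 15.3 kb of replicate 2 is not the end of binding, since IMA1, farther inward, had 1.98 there, against 2.76 in replicate 1. The pGPD-SIR2 pGPD-SIR3 arrays thus differed in reach by more than 10 kb on chromosome 2 and by less than 1 kb at the IMA5 and HXT8 end.

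The NAM release comparisons set the pGPD-SIR3 strain, 8 h after Sir2 inhibition was lifted, against untreated pGPD-SIR3 and WT. No array was taken from cells still in NAM, so loss and return of Sir3 were not measured. All 7 genes were lower in pGPD-SIR3 NAM release than in untreated pGPD-SIR3, and 4 of them were higher than in WT. Of all genes, 4.92% were lower than in pGPD-SIR3 and 12% were higher than in WT, and among the 161 other genes 5 to 30 kb from an end these shares were 28.6% and 30.4%. MAL33 had 2.21 and 2.42 in pGPD-SIR3 NAM release, against 5.91 and 5.39 in pGPD-SIR3 and 1.32 and 0.44 in WT. MAL31 had 1.80 and 1.77 in pGPD-SIR3 NAM release, against 5.53 and 4.86 in pGPD-SIR3 and 1.10 and 0.29 in WT. Both genes lay between the other groups without overlap, and differed from pGPD-SIR3 by -3.34 ± 0.61 and -3.41 ± 0.68 (limma adjusted p = 0.00923 and 0.0138).

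MAL13 had 0.56 and 0.63 in pGPD-SIR3 NAM release, against 3.05 and 2.35 in pGPD-SIR3, a difference of -2.11 ± 0.22 (limma adjusted p = 0.000468), and overlapped WT. MAL11 had 1.07 and 1.10 in pGPD-SIR3 NAM release, against 3.74 and 3.05 in pGPD-SIR3, a difference of -2.31 ± 0.20 (limma adjusted p = 0.000224). The isomaltase genes, farther from their chromosome ends, were lower as well. IMA1 had 1.51 and 2.04 in pGPD-SIR3 NAM release, against 3.03 and 2.78 in pGPD-SIR3, a difference of -1.13 ± 0.27 (limma adjusted p = 0.0242). This call was lost with the median of probes (-1.03, limma adjusted p = 0.0551), but not without the highest IMA1 probe (-1.02, limma adjusted p = 0.0351). IMA5 had 1.72 and 1.85 in pGPD-SIR3 NAM release, against 4.09 and 3.39 in pGPD-SIR3, a difference of -1.95 ± 0.26 (limma adjusted p = 0.00214). HXT8 differed by -0.76 ± 0.20 (limma adjusted p = 0.0365), with 0.47 and 0.43 in pGPD-SIR3 NAM release.

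No batch held arrays of both pGPD-SIR3 NAM release and pGPD-SIR3 or WT, since the NAM arrays are all from the later deposit. With the deposit as a block, MAL13 (-1.90), MAL11 (-2.15) and IMA5 (-1.66) stayed lower than in pGPD-SIR3 (limma adjusted p = 0.00564, 0.00452 and 0.0193), while MAL33 (-2.23), MAL31 (-2.07), IMA1 (-0.52) and HXT8 (-0.43) did not pass (limma adjusted p = 0.0844 to 0.339). Leaving out single arrays of either group left 3 to 5 calls, and MAL33, MAL31, IMA1 and HXT8 were the genes lost.

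Relative to WT, pGPD-SIR3 NAM release was higher at IMA1 by 1.55 ± 0.27 (limma adjusted p = 0.00243), at IMA5 by 1.56 ± 0.26 (limma adjusted p = 0.0023), at MAL11 by 0.76 ± 0.20 (limma adjusted p = 0.02) and at HXT8 by 0.60 ± 0.20 (limma adjusted p = 0.05, rounded, just under the threshold). MAL33 differed by 1.43 ± 0.61 (limma adjusted p = 0.115), MAL31 by 1.09 ± 0.68 (limma adjusted p = 0.275) and MAL13 by 0.16 ± 0.22 (limma adjusted p = 0.625). The HXT8 call was lost without any 1 of the 4 arrays, and the MAL11 call without WT replicate 2 or either NAM array (0.67 to 0.77). With the deposit as a block MAL33 (2.54) and MAL31 (2.43) passed too.

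The last comparison adds the loss of Dot1 to NAM release, with all 4 arrays in the later deposit. IMA5, IMA1 and HXT8 were lower in dot1 pGPD-SIR3 NAM release than in pGPD-SIR3 NAM release, and no gene of the 7 passed as higher with the settings used throughout. IMA5 had -0.09 and 0.07 in dot1 pGPD-SIR3 NAM release, against 1.72 and 1.85 in pGPD-SIR3 NAM release, a difference of -1.79 ± 0.26 (limma adjusted p = 0.000117). HXT8 had -0.43 and -0.50 in dot1 pGPD-SIR3 NAM release, against 0.47 and 0.43 in pGPD-SIR3 NAM release, a difference of -0.92 ± 0.20 (limma adjusted p = 0.00217). IMA1 had 0.67 and 0.97 in dot1 pGPD-SIR3 NAM release, against 1.51 and 2.04 in pGPD-SIR3 NAM release, a difference of -0.95 ± 0.27 (limma adjusted p = 0.00993). The IMA1 call was lost without pGPD-SIR3 NAM release replicate 2 (-0.69) or dot1 replicate 1 (-0.80). It was also lost with the median of probes (-0.73, limma adjusted p = 0.0589), but not without the highest IMA1 probe (-0.74, limma adjusted p = 0.0339). These 3 calls stand beside 23.9% of all genes called lower and 27.6% called higher, so a call is common in this comparison.

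The maltose permease genes had higher dot1 values that did not pass, and the call of MAL11 depended on the setting. MAL31 had 2.36 and 2.90 in dot1 pGPD-SIR3 NAM release, against 1.80 and 1.77 in pGPD-SIR3 NAM release, a difference of 0.84 ± 0.68 (limma adjusted p = 0.317). MAL11 had 1.46 and 1.70 in dot1 pGPD-SIR3 NAM release, against 1.07 and 1.10 in pGPD-SIR3 NAM release, a difference of 0.49 ± 0.20 (limma adjusted p = 0.0565). MAL11 passed as higher with centring on internal probes (0.52, limma adjusted p = 0.0466) and with the slide as a block (0.49, limma adjusted p = 0.0156). The arrays of both groups have no slide number and share a common level of that block, so no slide difference was adjusted for within this comparison. The activator genes differed by -0.16 ± 0.61 in MAL33 and 0.04 ± 0.22 in MAL13. After scaling to the internal spread, which is larger on the dot1 arrays, MAL31, MAL11 and MAL13 turned negative without passing. They were -1.24, -0.82 and -0.87 in units of that spread, while IMA5, IMA1 and HXT8 stayed called lower. The part of the wider spread in these differences was not tested further.

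Position again separated the chromosome ends. On chromosome 10 the running mean first dropped below 1 at 21.4 and 21.5 kb in dot1 pGPD-SIR3 NAM release, against 26.7 and 26.7 kb in pGPD-SIR3 NAM release. IMA5 lay beyond this distance only in the dot1 arrays of this pair. Since 21.4 kb was the lowest distance of any array on chromosome 10, a bound domain outward of it is not shown in dot1. On chromosome 2 the bound domain ended at 14.3 and 19.7 kb in dot1 pGPD-SIR3 NAM release, against 14.6 and 14.6 kb. On chromosome 7 the running mean first dropped below 1 at 16.9 and 18.5 kb in dot1 pGPD-SIR3 NAM release, against 15.6 and 17.7 kb in pGPD-SIR3 NAM release. This drop is not the end of binding in pGPD-SIR3 NAM release, where IMA1, farther inward, had 1.51 and 2.04. In dot1 pGPD-SIR3 NAM release IMA1 had 0.67 and 0.97. Inward of IMA1, the difference of dot1 pGPD-SIR3 NAM release from pGPD-SIR3 NAM release was positive at every BIO2 probe (0.63 to 0.93) and negative at every IMA1 probe (-1.80 to -0.68). BIO2 as a whole had means of 1.18 in dot1 pGPD-SIR3 NAM release and 0.39 in pGPD-SIR3 NAM release, a difference of 0.79 (limma adjusted p = 0.00322). After scaling to the internal spread BIO2 was no longer called (0.82 in units of that spread, limma adjusted p = 0.35).

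**Figure D5:**
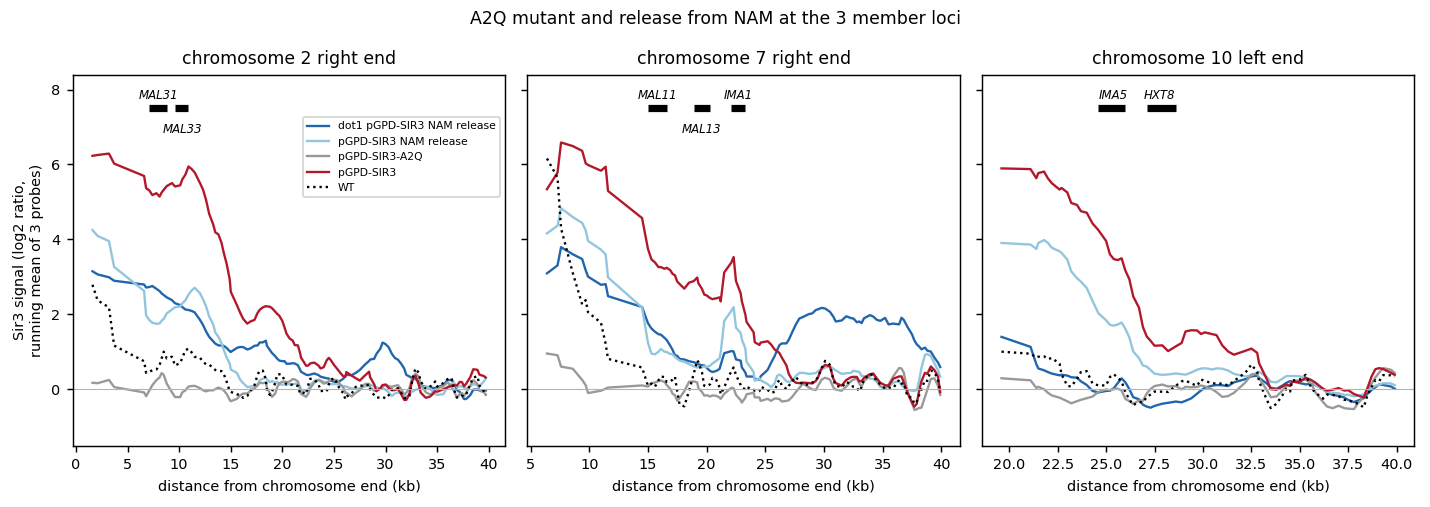
Running mean over 3 probes of the log2 ratio against distance from the chromosome end (kb), at the 3 ends that hold the genes (black bars). Lines are dot1 pGPD-SIR3 NAM release, pGPD-SIR3 NAM release, pGPD-SIR3-A2Q, pGPD-SIR3 and WT. On chromosome 10 the dot1 line is near or below 0 over IMA5 and HXT8, where the pGPD-SIR3 NAM release line is above it, whereas on chromosome 2 both NAM release lines run between those of pGPD-SIR3 and WT over MAL31 and MAL33.

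Across all 11 groups, pGPD-SIR3 had the highest mean for MAL33 (5.65 ± 0.37, SD, n = 2), MAL31 (5.19 ± 0.48), MAL13 (2.70 ± 0.49), MAL11 (3.40 ± 0.49) and IMA1 (2.91 ± 0.18). For MAL33 the pTEF-SIR3 mean (5.21 ± 0.55, SD, n = 2) followed, and the arrays of both groups overlapped. IMA5 had a mean of 3.74 in both pGPD-SIR3 and pTEF-SIR3, whose arrays overlapped. HXT8 was highest in pGPD-SIR2 pGPD-SIR3 (1.84 ± 0.43, SD, n = 2). The next in order were the single array of pGPD-SIR3 yAT2554 (1.23) and pGPD-SIR3 (1.21 ± 0.45, SD, n = 2). The lower pGPD-SIR2 pGPD-SIR3 array (1.53) stood barely above the higher pGPD-SIR3 array (1.52), and the difference between these groups did not pass the test. At the low end MAL33 had its lowest mean in pGPD-SIR3-A2Q (-0.07 ± 0.19, SD, n = 2), and HXT8 in dot1 pGPD-SIR3 NAM release. Over the 11 group means, which share arrays and centring, Pearson's r was highest between the neighbours MAL33 and MAL31 (0.990), then between the isomaltase genes IMA1 and IMA5 on different chromosomes (0.963) and between MAL13 and MAL11 (0.950). Other neighbours were less alike, with 0.858 for IMA5 and HXT8 and 0.804 for MAL13 and IMA1, and the lowest value of the 7 genes, 0.564, was between MAL11 and HXT8.

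Among genes on other chromosomes, the closest patterns over the 11 group means were those of RMD6 (r = 0.984) for MAL33, DLD3 (0.970) for MAL31, MCH2 for MAL13 (0.927) and MAL11 (0.924), YER186C (0.988) for IMA1, BDH2 (0.990) for IMA5 and OSW2 (0.977) for HXT8. OSW2 lies 249.8 kb from its chromosome end, and RMD6 lies 14.1 kb from its own. These are descriptions of likeness over 11 means and carry no test.

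Of 9 further genes of maltose, isomaltose and sucrose use, 2 were measured and 7 had no probe. YPR196W, a putative maltose activator gene on chromosome 16, had 2.50 and 0.58 in pTEF-SIR3 and a mean of 0.05 ± 0.21 in WT (SD, n = 2), and it passed in no comparison. SUC2, the invertase gene, was higher in pGPD-SIR2 pGPD-SIR3 (mean 0.73) than in pGPD-SIR2 (0.03), by 0.70 (limma adjusted p = 0.00593), and than in pGPD-SIR3 (0.16), by 0.57 (limma adjusted p = 0.00607).

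Of 19 other hexose transporter and sensor genes, 10 were measured, most of them far from chromosome ends, and 9 had fewer than 2 usable probes. In pTEF-SIR3 against WT, 4 of the 10 were higher, with 0.63 in HXT10 (limma adjusted p = 0.00347) and 0.54 in HXT1 (limma adjusted p = 0.00892), and the median of the 10 was 0.36. In pGPD-SIR3 against WT, 3 were higher, with 0.63 in HXT14 (limma adjusted p = 0.0115) and 0.48 in HXT10 (limma adjusted p = 0.0241), and the median was 0.24. HXT8 exceeded each of these differences, at 1.16 and 1.36. In pGPD-SIR3-A2Q against pGPD-SIR3, 4 were lower, among them HXT5 at -0.90 (limma adjusted p = 0.000114) and HXT14 at -0.86 (limma adjusted p = 0.000854). HXT10 had means of 1.90 in pGPD-SIR2 pGPD-SIR3 and 0.78 in pGPD-SIR2, a difference of 1.12 (limma adjusted p = 0.000387). In dot1 pGPD-SIR3 NAM release against pGPD-SIR3 NAM release, 2 were higher, with the glucose sensor gene RGT2 at 0.86 (limma adjusted p = 1.07e-05), and 6 were lower, with HXT14 at -0.74 (limma adjusted p = 0.000614). Calls in the other comparisons were fewer, with 2 higher in pTEF-SIR3 than in pADH-SIR3, 2 higher in pGPD-SIR2 pGPD-SIR3 than in each of pGPD-SIR2 and pGPD-SIR3, 1 higher in pGPD-SIR3 NAM release than in WT and 1 lower in pGPD-SIR3-A2Q than in WT. By limma's adjusted threshold 0 of the 10 were called in the other 6 comparisons, where 0 to 3 had an unadjusted p under 0.05.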

How the data were processed

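The files hold 1 Sir3 ChIP-chip array per sample. Per the file headers, the deposited ratio is precipitate over whole cell extract for each probe, and the deposited score is a Z-score, which was not used; a rescaled version of the ratio with missing probes filled, which the series' value table repeats in every cell, served as an alternative. The sources used here do not state the authors' scanner processing or genome build. Ratios at or below 0 (19 values on 5 arrays) were set missing, and log2 ratios of the deposited values were computed and centred on each array's median over 41480 probes (median ratio 0.0292 to 0.942). Because that median differs so much between arrays, only differences from it are compared. Gene values average probes whose midpoint lies at least 100 bp inside the coding region (450 bp at the upper side on chromosomes 10 and 11, where probe positions are offset), measured on all 19 arrays (36515 probes), with at least 2 probes a gene. Gene names and extents came from the RefSeq gene table.

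limma 3.58.1 in R 4.3.3 fitted 1 mean per group over all 19 arrays (8 residual and 4.33 prior degrees of freedom), with Benjamini-Hochberg adjustment within each of 15 comparisons at 0.05. The fit was tested on simulated data. Summaries and plots were made with matplotlib 3.10.9, pandas 2.3.3 and numpy 2.4.6 in Python 3.11.15. The members and lists were chosen with earlier results of these data known. Named genes are the members, their neighbours, the 2 genes of most similar pattern on other chromosomes for each member (of which the first is printed), and list genes that passed the test. Alternatives covered the margin, probe number and median, array scaling and centring, the filled ratio, deposit, slide and replicate blocks, and leaving out arrays. Replicate numbers did not pair samples: over 28 pairs of groups, same-numbered arrays correlated at -0.343 to 0.641, with 10 above 0.1.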

Additional observations from a re-analysis of the deposited data

How the results depend on the processing

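Over all alternatives and comparisons, 1358 single-gene values kept direction and side of the threshold, 74 lost a call, 26 gained one and 48 changed sign, none of these 48 called in either setting. All 7 genes stayed called in pTEF-SIR3 and pGPD-SIR3 against WT without any 1 array, and in pGPD-SIR3-A2Q against pGPD-SIR3 likewise.

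In pADH-SIR3 against WT, 1 gene was called in the first deposit alone, as with a deposit block or a slide block. MAL31 became 0.32 with the deposit block, and MAL33, MAL31 and MAL11 became 1.59, 1.89 and 0.12 with the slide block. Leaving out arrays gave -0.76 to 0.06 for MAL31 and -0.17 to 0.00 for MAL11. In pGPD-SIR3 against pTEF-SIR3, 2 genes were called with no margin, 0 with scaling to internal spread, the filled ratio, the deposit block or the first deposit alone, and 0 to 2 on leaving out arrays. IMA5 became 0.00 with no margin, 0.01 with shifted positions and, in units of the internal spread, 0.51 with scaling. MAL33 and MAL31 became -0.11 and -0.42 with the deposit block and -1.03 and -1.19 with the slide block, and MAL31 was -0.15 in the first deposit alone. Leaving out arrays gave -0.35 to 0.35 for IMA5, -0.15 to 0.65 for MAL31 and -0.12 to 0.51 for HXT8.

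In yAT2554 against pGPD-SIR3, HXT8 became -0.03 with no margin, -0.25 with the slide block and -0.10 with the replicate block. With scaling HXT8 became -0.19 in units of the internal spread, and IMA1 became 0.10 with the median of probes. Leaving out arrays gave -0.53 to 0.16 for MAL13, -0.60 to 0.10 for IMA5 and -0.29 to 0.34 for HXT8, and, in yAT2476 against pGPD-SIR3, -0.44 to 0.24 for MAL31. In pGPD-SIR3-A2Q against WT, the slide block gave 0.39 for MAL13, 0.53 for MAL11 and 0.20 for IMA5. Leaving out arrays gave -0.76 to 0.05 for MAL31, -0.16 to 0.01 for MAL11 and -0.50 to 0.09 for IMA5. In pGPD-SIR2 against WT, 1 gene was called with the slide block, where MAL33 and MAL13 became 1.88 and 0.01, and MAL31 became -0.21 with the replicate block. Leaving out arrays gave -0.81 to 0.07 for MAL33, -0.34 to 0.01 for MAL13, -0.30 to 0.51 for MAL31 and -0.11 to 0.48 for IMA5.

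In pGPD-SIR2 pGPD-SIR3 against pGPD-SIR2, 3 genes were called with scaling, 3 with the slide block and 3 to 6 on leaving out arrays. Against pGPD-SIR3, 1 was called in the first deposit alone, and the slide block gave 2. In pGPD-SIR3 NAM release against pGPD-SIR3, 3 were called with the deposit block, 2 with the slide block and 3 to 5 on leaving out arrays. Against WT, 2 to 3 were called on leaving out arrays, with -0.01 to 0.33 for MAL13. In dot1 pGPD-SIR3 NAM release against pGPD-SIR3 NAM release, scaling gave -0.87, -1.24 and -0.82 for MAL13, MAL31 and MAL11, in units of the internal spread. Leaving out arrays gave -0.42 to 0.09 for MAL33 and -0.10 to 0.18 for MAL13 in that comparison. Scaling also ended the calls of IMA1 and HXT8 in pTEF-SIR3 against pADH-SIR3 and in pGPD-SIR3 NAM release against pGPD-SIR3, and that of HXT8 against WT. In scaled units the median of all genes was -0.13 in yAT2476 against pGPD-SIR3, and 0.11 and 0.18 in pGPD-SIR3-A2Q against WT and pGPD-SIR3, far smaller than the called differences. The causes of these changes were not tested.

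With the replicate number as a block, 6 genes in place of 4 were called in pGPD-SIR2 pGPD-SIR3 against pGPD-SIR3 and 4 in place of 3 in the dot1 comparison, where MAL11 passed as higher (0.49, limma adjusted p = 0.0475). The numbers share no stated source, and the counts for the other comparisons were unchanged. The slide block could not be estimated for yAT2476, and the NAM release groups have no arrays in the first deposit. The number of arrays, 1 or 2 a group, limits precision.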
